A study of Mus musculus with 10 samples.

Results

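Of 13444 autosomal probe clusters on a mouse CpG island array, 1099 (8.17%) gave a methylated DNA signal above the array median on all 10 arrays of mouse hemibrain, and these always-high regions are described here. A region was a run of 3 or more probes on 1 autosome with neighbouring probe starts at most 500 bp apart. Its value on an array was the mean over its probes of log2 of the signal of immunoprecipitated DNA over the signal of input DNA, centred on the median probe of that array, so that 0 is the array median. The 1099 regions held 5833 of the 85655 probes that fell into any of the 13835 regions, which include chromosome X. The regions were selected on their levels on all 10 arrays, so every level below is a description and no test was made on a level.

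The samples were left hemibrains of male mice of the inbred strain C57BL/6j, and the study asked how the dietary balance of n-3 and n-6 polyunsaturated fatty acids affects the brain. Feeding with 1 of 3 diets began when the mice were 3 weeks old and lasted 24 weeks. The enriched diet (ERD, 4 arrays) had an n-3:n-6 ratio of 7:1, the balanced diet (BLD, 3 arrays) a ratio of 1:1 and the standard laboratory diet (STD, 3 arrays) a ratio of 1:6, and the first 2 were made to match the calories of STD. Whether each array is a separate animal is not stated in the labels; if not, p-values reflect only the spread among these samples, which may be technical. The word CONTROL closes every sample title in all diets, and the diets were taken from the diet field. A hemibrain holds many cell types, and the array carries no measure of which of them a signal comes from.

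CpG islands are short segments with many CpG dinucleotides, often at gene promoters. Most islands at promoters lack methylation in normal tissue, while a minority carry it, among them islands within genes, at imprinted loci and at promoters of germline genes. In methylated DNA immunoprecipitation an antibody against 5-methylcytosine pulls down DNA fragments, and the pulled-down DNA is compared with total input DNA. The yield rises with methylation and also with the number of CpGs in a fragment, so a ratio above the array median marks a region as high relative to the other probes and is no percentage of methylation. Immunoprecipitated DNA carried Cy5 and input DNA Cy3 on every array, so the methylation of a probe and a dye effect on it cannot be told apart. The files pair no probe with a gene or a sequence, and positions are given on mouse build mm9 as chromosome, start and end.

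Between 76.4% and 94.7% of the probes of an array were well above background in both channels, and between 82.0% and 97.8% of the probes in always-high regions were. The 10 arrays lay on 5 slides with 2 arrays each. Only 1 slide held arrays of different diets (BLD replicate 3 and STD replicate 1). Slide and diet can therefore be told apart only on that pair of arrays. STD replicate 3 had the lowest share of probes well above background and the narrowest spread of log2 ratios of the 10 arrays, with an interquartile range over probes of 0.38. ERD replicate 1 had the widest spread, 0.79.

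The rule depends on how background was treated, which limits the reading of these regions as methylated islands. The levels used the scanner's own background-subtracted and dye-normalized signals. With local background subtracted and 50 added to each signal, 624 of the 1099 regions were still above 0 on all arrays, and with no background correction 617 were. With the normexp model of background, 204 were, and the median level over the 1099 regions then lay between -0.15 on STD replicate 3 and 0.40 on ERD replicate 4. With the processed values that the authors deposited as a series table, 1079 were above 0 on all arrays.

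**Figure D1:**
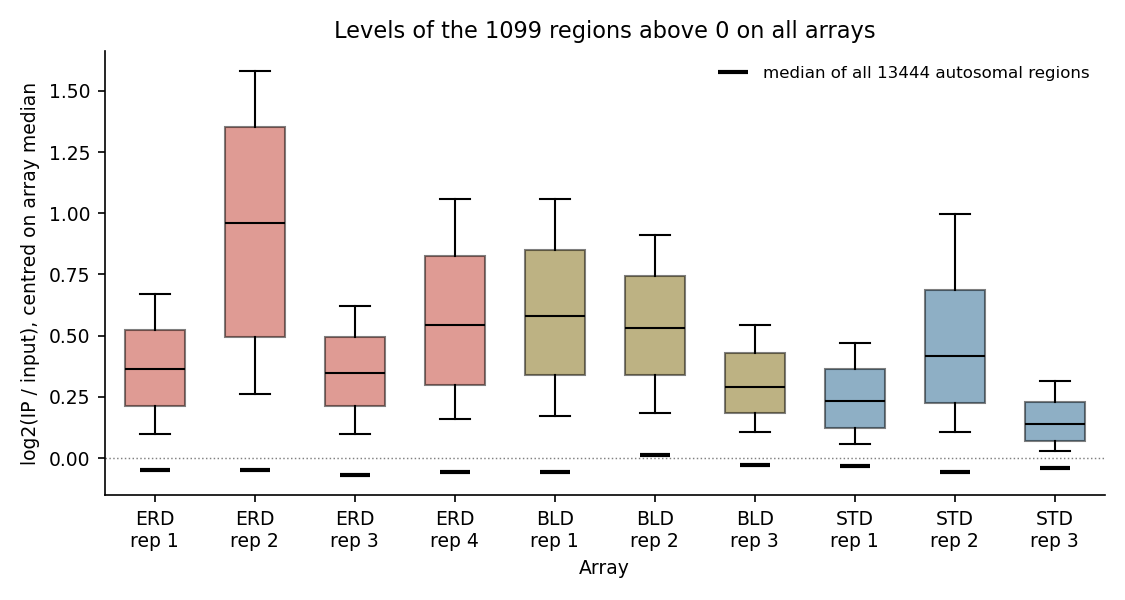
Log2 ratio of immunoprecipitated over input DNA (vertical axis, centred on the array median) on each of the 10 arrays (horizontal axis) over the 1099 regions above 0 on all arrays. Boxes span the quartiles with the median as a line, whiskers span the tenth to the ninetieth percentile, and thick dashes give the median of all 13444 autosomal regions; ERD replicate 2 had the highest median of the always-high regions (0.96) and STD replicate 3 the lowest (0.14).

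The always-high regions were modest in level and spread unevenly over arrays. The mean of the 3 diet means had a median of 0.44 over the 1099 regions and ranged from 0.08 to 1.13, 453 regions were above 0.5 and 4 were above 1. On the ERD arrays the median over the 1099 regions was 0.36, 0.96, 0.35 and 0.55 for replicates 1 to 4. On the BLD arrays it was 0.58, 0.53 and 0.29, and on the STD arrays it was 0.23, 0.42 and 0.14. The diets overlapped in these medians, since STD replicate 2 was above ERD replicates 1 and 3 and above BLD replicate 3. ERD replicate 2 gave the highest of the 10 values in 746 regions (67.9%), and STD replicate 3 gave the lowest in 554 (50.4%).

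The choice was compared with arrays it had not used by leaving out each array in turn. Among regions above 0 on the other 9 arrays, between 70.4% and 98.2% were above 0 on the array left out. The share was 70.4% for STD replicate 3, 85.0% for STD replicate 1 and between 91.6% and 98.2% for the other 8 arrays. Over all autosomal regions, between 39.7% and 51.4% were above 0 on an array. Without STD replicate 3 the rule gave 1561 regions, and without any other single array it gave between 1119 and 1293.

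Many regions lay close to the threshold of the rule. There were 1104 regions above 0 on exactly 9 arrays, 947 above 0 on 8 and 2185 below 0 on all 10. Just inside the rule, the region on chromosome 16 from 18586263 to 18587390 measured 0.36, 0.71, 0.09 and 0.47 on the ERD arrays, 0.65, 0.37 and 0.07 on the BLD arrays and 0.15, 0.34 and 0.00 on the STD arrays. Just outside, the region on chromosome 11 from 59063116 to 59063590 measured 0.46, 1.41, 0.62 and 0.93, then 0.71, 0.59 and 0.42, and then 0.36, 0.65 and -0.00. Its mean level, 0.59, was above the 0.31 of the region on chromosome 16, so the mean did not separate the regions inside from those outside.

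The region of highest level lay on chromosome 9 from 122075655 to 122076150 and held 4 probes. It measured 0.56, 1.47, 0.79 and 1.44 on the ERD arrays, 1.15, 0.87 and 0.93 on the BLD arrays and 0.92, 1.88 and 1.26 on the STD arrays. Its highest value was on an STD array and its lowest on an ERD array, and the diets overlapped. The second lay on chromosome 18 from 4052532 to 4052890 with 3 probes, and it had the highest minimum of all 1099 regions, 0.59 on BLD replicate 3. It measured 0.94, 1.94, 1.29 and 1.21 on the ERD arrays, 1.23, 1.41 and 0.59 on the BLD arrays and 0.62, 0.92 and 0.66 on the STD arrays, with all ERD arrays above all STD arrays. On its 3 probes 70% of the spots were well above background, and its input signal was low, at -1.42 on the log2 scale against the median probe.

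The third and the fourth regions by level, on chromosomes 1 and 8, had 1 STD array high and the other two low. The region on chromosome 1 from 188791248 to 188792165 held 7 probes and measured 0.82, 1.86, 0.71 and 1.28 on the ERD arrays, 1.21, 1.07 and 0.75 on the BLD arrays and 0.62, 1.56 and 0.52 on the STD arrays. On chromosome 8, the region from 3451969 to 3452316 held 3 probes and measured 0.80, 1.40, 0.98 and 1.48 on the ERD arrays, 1.12, 1.13 and 0.65 on the BLD arrays and 0.63, 1.80 and 0.23 on the STD arrays. In both, STD replicate 2 was among the 2 highest of the 10 arrays. The other 6 of the 10 highest lay on chromosome 5 (from 136750661, from 93370523 and from 97820982), chromosome 11 (from 19920636), chromosome 7 (from 52582511) and chromosome 4 (from 107356053), with levels between 0.92 and 0.99. Of these the region on chromosome 5 from 93370523 to 93372008 was the longest, with 9 probes, and measured 0.77, 1.76, 0.83 and 1.44 on the ERD arrays, 1.26, 0.76 and 0.52 on the BLD arrays and 0.70, 1.19 and 0.46 on the STD arrays.

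**Figure D2:**
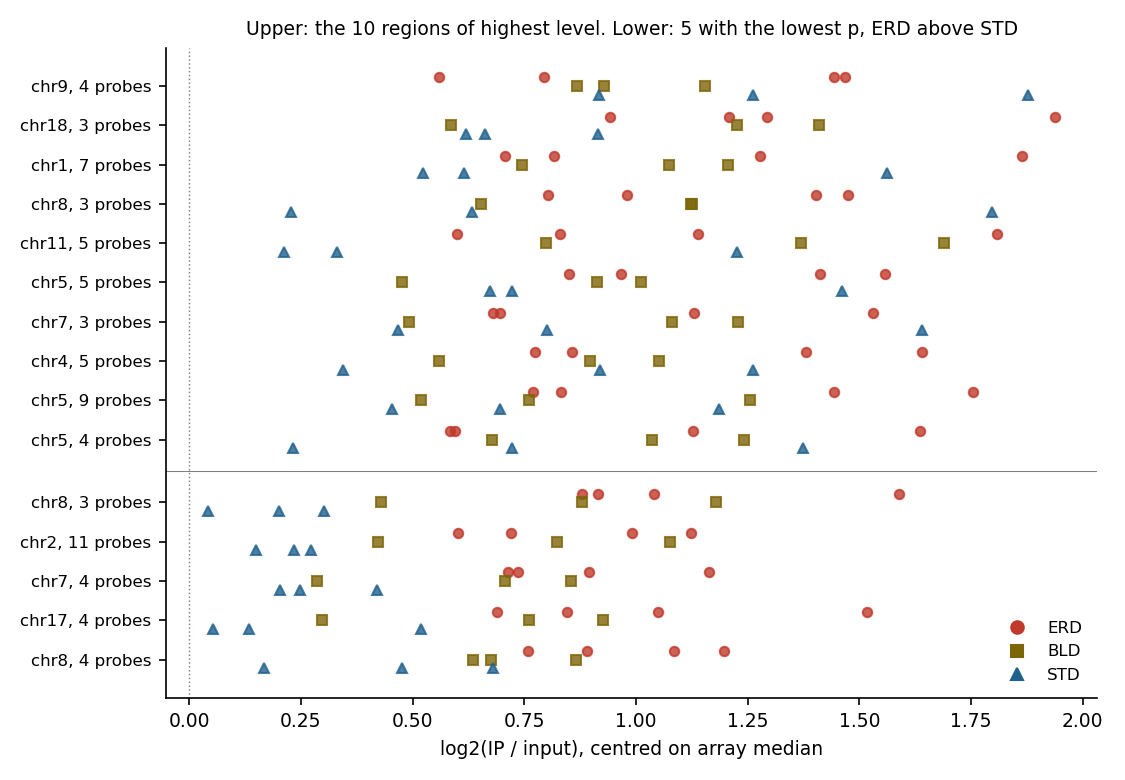
Log2 ratio (horizontal axis, centred on the array median) on each of the 10 arrays for the 10 always-high regions of highest level (upper rows) and the 5 with the lowest p for ERD above STD (lower rows), each row named by chromosome and number of probes. Each mark is 1 array, by diet; in the upper rows the ERD and STD arrays overlap except in the chromosome 18 region, and in the lower rows all ERD arrays lie above all STD arrays.

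Always-high regions were shorter and held fewer probes than regions in general. They had a median of 4 probes and 485 bp, against 5 probes and 644 bp over all autosomal regions. Of the regions with 3 probes 12.3% were always high, of those with 4 to 5 probes 10.1%, of those with 6 to 10 probes 5.57% and of those with over 10 probes 4.21%. A mean over fewer probes varies more, and the part of this in the counts was not tested. Regions above 0 on exactly 9 arrays had the same median of 4 probes, and those below 0 on all arrays had a median of 7.

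Most always-high regions were high at each of their probes. In 902 of the 1099 regions (82.1%) every probe was above 0 in the mean of the 3 diets, against 961 of 12345 other autosomal regions (7.78%), a contrast that the rule itself fixes in large part. The SD among the probes of a region had a median of 0.19 in always-high regions and 0.28 over all autosomal regions. In regions above 0 on exactly 9 arrays this median was 0.20, and 589 of 1104 (53.4%) had every probe above 0. Input DNA gave a median log2 signal of 0.03 in always-high regions and -0.14 over all autosomal regions, both against the median probe of the array. With regions divided into 5 equal classes by input signal, 11.6% in the top class were always high, against between 6.58% and 8.78% in the other 4. Among regions whose probes were all 45 nt long, the shortest on the array, 11.0% were always high, against 7.46% where the mean probe length was over 45 and up to 48 nt and 7.29% where it was longer. Only probes of 45 nt were held by 28.4% of always-high regions and 21.1% of all autosomal regions. Regions below 0 on all arrays shifted the same way, with 25.9% and a median input signal of -0.03. For regions above 0 on exactly 9 arrays the values were 19.3% and -0.20. Input signal and probe length thus differed at both extremes, and their part in membership was not tested.

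Of the 5 always-high regions with the most probes, 3 were high along most of their length and the other 2 were mixed. The region on chromosome 11 from 74978752 to 74982895, with 30 probes, measured 0.18, 0.68, 0.03 and 0.37 on the ERD arrays, 0.20, 0.34 and 0.26 on the BLD arrays and 0.11, 0.24 and 0.01 on the STD arrays. In the mean of the diets 28 of its 30 probes were above 0, and single probes ran from -0.34 to 0.55. On chromosome 15, a region of 26 probes from 76008957 to 76012444 was higher, at 0.70, 1.25, 0.49 and 0.78 on the ERD arrays, 0.91, 0.53 and 0.30 on the BLD arrays and 0.29, 0.62 and 0.14 on the STD arrays. Of its probes 25 were above 0, and the highest reached 1.21. On chromosome 2, a region of 25 probes from 25432477 to 25435492 measured 0.23, 1.24, 0.18 and 0.72 on the ERD arrays, 0.56, 0.54 and 0.29 on the BLD arrays and 0.12, 0.68 and 0.11 on the STD arrays, and 24 of its probes were above 0. The next longest lay on chromosome 8 from 28087123 to 28090275 and had a level of 0.15, with 17 of its 23 probes above 0. The last of the 5 longest, with 22 probes, lay on chromosome 5 from 139468793 to 139472230 and had a level of 0.13, with 13 of its probes above 0.

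Within regions of 8 or more probes, the profile was flat in always-high regions and dipped in the middle in others. Each region was divided into 5 parts of equal length, and the outer 2 were compared with the middle one on each array. In 163 always-high regions the outer parts exceeded the middle by 0.010 ± 0.059 (SD over 10 arrays) and were higher on 5 of 10 arrays. In 3052 other autosomal regions they exceeded it by 0.12 ± 0.049 and were higher on 10 of 10 arrays. The difference between the profiles was not tested.

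**Figure D3:**
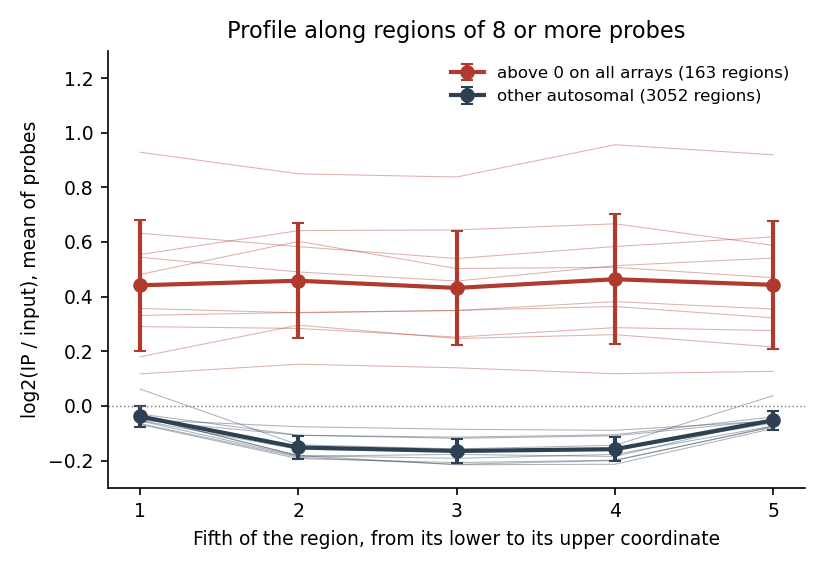
Mean log2 ratio of probes (vertical axis) by position along the region in 5 parts of equal length (horizontal axis) in always-high regions (163) and other autosomal regions (3052) of 8 or more probes. Thin lines are the 10 arrays, points and bars the mean and SD over arrays; the middle part was at 0.43 and -0.17, the first part at 0.44 and -0.04.

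Always-high regions lay closer to other regions. The nearest other region was at a median of 14812 bp, against 25588 bp over all autosomal regions, and within 10 kb for 460 of 1099 (41.9%), against 3531 of 12345 other autosomal regions (28.6%). Regions above 0 on exactly 9 arrays were similar, with a median of 17287.5 bp and 435 of 1104 (39.4%) within 10 kb. Those below 0 on all arrays had a median of 33008 bp. The share of regions that were always high did not fall steadily with distance. It was 8.62% where the nearest region was under 2 kb away, 13.1% at 2 to 10 kb, 8.06% at 10 to 50 kb, 5.31% at 50 to 100 kb and 5.11% at 100 kb or more. The maximum at 2 to 10 kb was present among regions of 3 to 5 probes (16.2%) and among those of over 5 probes (9.05%).

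Some always-high regions neighboured each other. Among always-high regions with the nearest region within 10 kb, that region was itself always high in 85 of 460 (18.5%), against 380 of 3531 (10.8%) for other autosomal regions. Regions above 0 on exactly 9 arrays had such a neighbour in 67 of 435 (15.4%). At 10 kb or more the shares were 8.29% for always-high and 7.31% for other autosomal regions, and none of these differences was tested. Along the chromosomes 868 always-high regions stood alone between regions that were not, 89 runs held 2 in a row, 15 held 3 and 2 held 4. Both runs of 4 were on chromosome 10, one from 79179900 to 79202393 and the other from 80782947 to 80801058. Within the first, levels over the 4 regions were 0.19, 0.42, 0.72 and 0.88, and within the second they were 0.09, 0.78, 0.57 and 0.52, so regions of a run differed in level.

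In the nearest pair of always-high regions, 502 bp apart on chromosome 10, the region from 126948711 to 126949258 measured 0.56, 0.23, 0.28 and 0.16 on the ERD arrays, 0.14, 0.10 and 0.18 on the BLD arrays and 0.32, 0.10 and 0.04 on the STD arrays. Its neighbour from 126949760 to 126950366 measured 0.46, 0.37, 0.16 and 0.15, then 0.37, 0.40 and 0.14, and then 0.35, 0.25 and 0.16. Both were highest on ERD replicate 1. The second was higher than the first on ERD replicate 2, on BLD replicates 1 and 2 and on all STD arrays, and lower on the other arrays. In the second pair, 600 bp apart on chromosome 11, the region from 103672587 to 103672931 had a level of 0.49 and that from 103673531 to 103674200 a level of 0.64.

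Probes that stood alone or in pairs, and so belonged to no region, gave a measure outside the rule. There were 2696 such autosomal probes, and for 196 of them the nearest region was always high. Within 2 kb of an always-high region (27 probes) they averaged 0.14 ± 0.13 (SD over 10 arrays), and within 2 kb of another region (601 probes) 0.00 ± 0.05, with the first higher on 9 of 10 arrays. At 2 to 5 kb the order was turned, with 0.09 ± 0.10 (32 probes) and 0.18 ± 0.15 (149 probes) and the first higher on 3 arrays. At 5 to 10 kb they averaged 0.20 ± 0.11 (37 probes) and 0.11 ± 0.09 (271 probes), with the first higher on 10 arrays. At 10 to 50 kb, the bin with the most probes near always-high regions, they averaged 0.16 ± 0.16 (66 probes) and 0.08 ± 0.09 (754 probes), with the first higher on 8 arrays. Beyond 50 kb they averaged 0.13 ± 0.17 (34 probes) and 0.11 ± 0.10 (725 probes), with the first higher on 7 arrays. The differences were not tested, and they showed no steady change with distance.

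Chromosomes differed in their share of always-high regions. It was highest on chromosome 10 (78 of 690 regions, 11.3%), chromosome 7 (110 of 1002, 11.0%) and chromosome 15 (63 of 603, 10.4%) and lowest on chromosome 3 (29 of 601, 4.83%) and chromosome 13 (24 of 518, 4.63%). The median distance to the nearest region was 25623 bp on chromosome 10, 17197 bp on chromosome 7, 35639 bp on chromosome 3 and 35254 bp on chromosome 13. Chromosomes 3 and 13 were thus more widely spaced than chromosomes 7 and 10. The shares followed spacing only in part. The distance on chromosome 10 was near the 25588 bp of all autosomal regions, and chromosome 11, at 18067 bp, had a share of 8.04%. The part of spacing in these shares was not tested. By blocks of 5 Mb, the largest counts were on chromosome 10, with 23 of 115 regions from 75000001 to 80000000 and 23 of 99 from 80000001 to 85000000. Chromosome 15 from 75000001 to 80000000 had 22 of 135, and chromosome 17 from 45000001 to 50000000 had 15 of 63 (23.8%), the highest share of the 162 blocks with at least 30 regions, whose median was 7.95%.

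**Figure D4:**
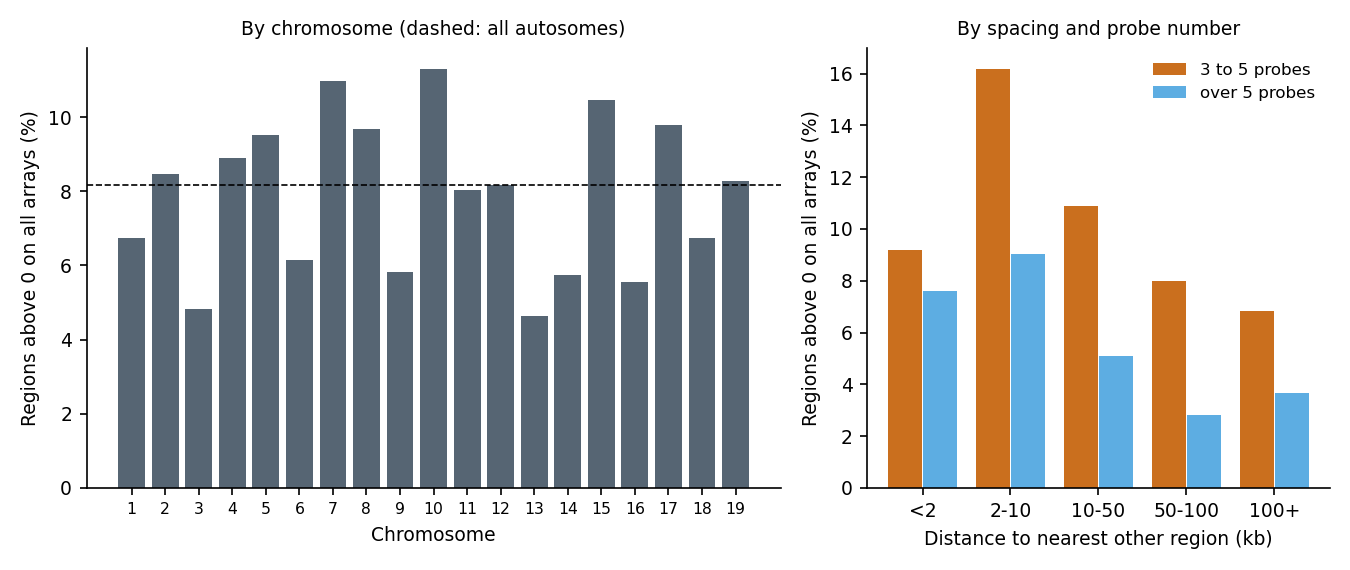
Share of autosomal regions that were above 0 on all arrays (vertical axes, percent) by chromosome (left; the dashed line is the share over all autosomes, 8.17%) and by distance to the nearest other region in kb and number of probes (right). Chromosome 10 had the highest share (11.3%) and chromosome 13 the lowest (4.63%); regions of 3 to 5 probes with a neighbour at 2 to 10 kb reached 16.2%.

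The arrays of a diet spread widely in the always-high regions. The SD over arrays after removing diet means had a median of 0.26 in always-high regions and 0.16 over all autosomal regions. The widest was on chromosome 8 from 111480556 to 111481031, with 0.35, 2.01, 0.03 and 0.37 on the ERD arrays, 0.93, 0.73 and 0.32 on the BLD arrays and 0.16, 0.83 and 0.19 on the STD arrays. The next, on chromosome 5 from 123823146 to 123823534, measured 0.14, 1.79, 0.08 and 0.36 on the ERD arrays, 1.58, 1.51 and 0.56 on the BLD arrays and 0.02, 0.39 and 0.25 on the STD arrays, with 40% of its spots well above background. In these 2 and in the next 3 (chromosome 8 from 46136649, chromosome 14 from 31989536 and chromosome 11 from 103673531) ERD replicate 2 was the highest of the 10 arrays, at 1.79 to 2.13.

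The most even always-high regions were low ones. The region on chromosome 10 from 80782947 to 80784018, with 9 probes, measured 0.11, 0.18, 0.15 and 0.08 on the ERD arrays, 0.01, 0.08 and 0.10 on the BLD arrays and 0.10, 0.08 and 0.07 on the STD arrays. On chromosome 11, the region from 94902460 to 94902872 was the highest of the 5 most even, with 0.32, 0.34, 0.22 and 0.35 on the ERD arrays, 0.25, 0.18 and 0.27 on the BLD arrays and 0.33, 0.30 and 0.40 on the STD arrays. In it the ERD arrays overlapped both other diets, and all BLD arrays lay below all STD arrays.

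No always-high region passed the threshold of an adjusted p of 0.05 in any diet comparison. The test was limma's moderated test on all 13835 regions with Benjamini-Hochberg adjustment, and percentages over all regions are given beside each count. The share of all regions past the adjusted threshold was 0.0% for ERD against STD, 0.0% for BLD against STD, 0.0% for ERD against BLD and 0.0434% (6 regions) for the trend over the n-3:n-6 ratio on the log2 scale. The lowest adjusted p in an always-high region was 0.156, 0.44, 0.422 and 0.128 in these 4 comparisons. At an unadjusted p under 0.05, 215 always-high regions were counted for ERD against STD, 77 for BLD against STD, 38 for ERD against BLD and 220 for the trend. The shares of all regions were 15.7%, 11.2%, 10.2% and 15.0%.

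Between ERD and STD, nearly all of these differences had 1 direction. Of the 1099 regions 214 (19.5%) had a higher ERD mean at an unadjusted p under 0.05, where 7.68% of all regions had, and 1 had a lower one, where 8.02% had. All ERD values exceeded all STD values in 159 always-high regions (7.24% of all regions) and were below them in 4 (9.01%). The difference of diet means, ERD minus STD, had a median of 0.25 over always-high regions and 0.00 over all regions, and a median SE of 0.17. The median over always-high regions was 0.13 without ERD replicate 2 and 0.10 with normexp. Levels on all arrays chose these regions, so this direction over the set is a description. By diet means the spread of the arrays moved with it: the interquartile range over probes was 0.71 ± 0.08 on the ERD arrays (SD, n = 4), 0.61 ± 0.20 on the BLD arrays (n = 3) and 0.47 ± 0.08 on the STD arrays (n = 3). Single arrays did not all follow. ERD replicate 1, with a range of 0.79, had a median level of 0.36, and ERD replicate 4, with 0.61, had 0.55. On the shared slide the ranges of BLD replicate 3 and STD replicate 1 were 0.38 and 0.51, and the median levels were 0.29 and 0.23. The part of the spread in the difference was not tested. With every array scaled to 1 interquartile range the median difference was 0.10 over always-high regions and 0.03 over all regions, and 91 regions (8.28%) had a higher ERD mean at an unadjusted p under 0.05, where 7.96% of all regions had. Counted in either direction, 9.19% of the always-high regions and 13.5% of all regions were then under that p. Only 10 always-high regions had a lower ERD mean at that p with the scaled arrays. With quantile normalization between arrays the median difference was also 0.10, and 131 regions (11.9%) had a higher ERD mean at that p, where 7.15% of all regions had. The count of 214 was 125 without ERD replicate 2, 117 without STD replicate 1 and 77 without STD replicate 3. It was 334 without ERD replicate 1, 318 without ERD replicate 3 and 318 without STD replicate 2. In the same order 6.18%, 7.30%, 4.03%, 8.23%, 8.703% and 7.81% of all regions had a higher ERD mean at that p.

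**Figure D5:**
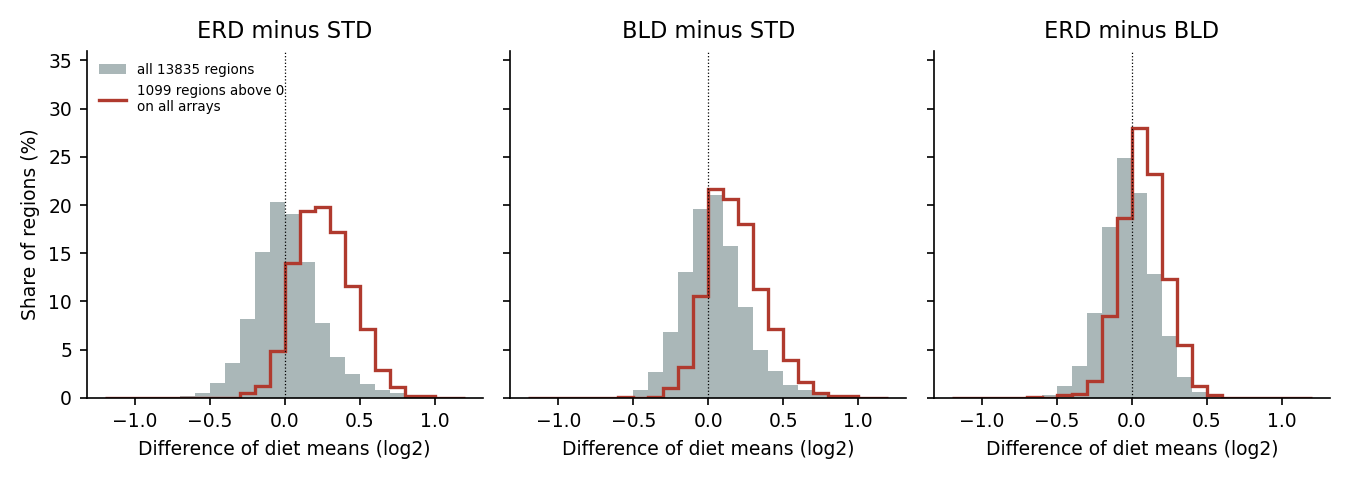
Difference of diet means in log2 units (horizontal axes, bins of 0.1) over the 1099 always-high regions (red outline) and all 13835 regions (grey), as a share of regions in percent (vertical axis), for ERD minus STD, BLD minus STD and ERD minus BLD. The always-high regions had medians of 0.25, 0.16 and 0.07, and all regions 0.00, 0.03 and -0.03, on arrays whose spread also differed between diets.

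The always-high region with the lowest p for ERD against STD lay on chromosome 8 from 46036924 to 46037295 and held 3 probes. It measured 0.92, 1.59, 0.88 and 1.04 on the ERD arrays, 1.18, 0.88 and 0.43 on the BLD arrays and 0.30, 0.20 and 0.04 on the STD arrays. All ERD and BLD arrays were above all STD arrays. The difference ERD minus STD was 0.92 (SE 0.19, limma adjusted p = 0.156), and of its spots 83.3% were well above background on the ERD arrays and 55.6% on the STD arrays. With quantile normalization between arrays its adjusted p was 0.0236 and with normexp background correction the difference was -0.07. The second, on chromosome 2 from 173410946 to 173412429 with 11 probes, measured 0.99, 1.12, 0.72 and 0.60 on the ERD arrays, 1.08, 0.82 and 0.42 on the BLD arrays and 0.23, 0.27 and 0.15 on the STD arrays. Its difference was 0.64 (SE 0.16, limma adjusted p = 0.181), and with normexp it was -0.06.

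The other 3 regions of lowest p were also above STD on every ERD array and had the same limma adjusted p of 0.181. On chromosome 7, the region from 112583454 to 112583907 measured 0.71, 1.16, 0.74 and 0.89 on the ERD arrays, 0.86, 0.71 and 0.29 on the BLD arrays and 0.20, 0.42 and 0.25 on the STD arrays, with all of its spots well above background. On chromosome 17, the region from 23803532 to 23803905 measured 0.69, 1.52, 0.84 and 1.05 on the ERD arrays, 0.93, 0.76 and 0.30 on the BLD arrays and 0.05, 0.52 and 0.13 on the STD arrays. On chromosome 8, the region from 125154578 to 125154939 measured 0.76, 1.09, 0.89 and 1.20 on the ERD arrays, 0.87, 0.67 and 0.63 on the BLD arrays and 0.48, 0.68 and 0.17 on the STD arrays. Their differences ERD minus STD were 0.59, 0.79 and 0.54.

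In the opposite direction, 1 always-high region was lower in ERD than in STD at an unadjusted p under 0.05. It lay on chromosome 4 from 88513939 to 88514338 and measured 0.03, 0.01, 0.01 and 0.01 on the ERD arrays, 0.21, 0.14 and 0.01 on the BLD arrays and 0.11, 0.56 and 0.19 on the STD arrays. The difference was -0.27 (SE 0.11, limma adjusted p = 0.283), all ERD arrays sat just above the threshold of the rule, and 50% of its spots were well above background on the STD arrays. With local background subtracted the difference was 0.02.

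BLD exceeded STD by a median of 0.16 over always-high regions, against 0.03 over all regions. The median over always-high regions was 0.10 without STD replicate 3 and 0.26 without STD replicate 2. At an unadjusted p under 0.05, 77 always-high regions (7.01%) were higher in BLD, where 7.31% of all regions were, so the count was near the background, and 0 were lower, where 3.89% were. The BLD arrays lay above all STD arrays in 147 always-high regions (11.1% of all regions) and below them in 5 (6.27%). The count of 77 rose to 203 when ERD replicate 2 was dropped and to 194 when BLD replicate 3 was. These were 18.5% and 17.7% of the 1099, above the 10.2% and 11.03% of all regions. Dropping BLD replicate 1 gave 19, BLD replicate 2 gave 26, STD replicate 1 gave 36 and STD replicate 3 gave 26. Those counts were 1.73%, 2.37%, 3.28% and 2.37% of the 1099, below the 3.41%, 3.101%, 5.10% and 5.10% of all regions. Whether the share lay above or below the background thus depended on the array dropped. With normexp the median difference turned to -0.07. On the slide that held both diets, BLD replicate 3 was above STD replicate 1 in 710 of the 1099 regions (64.6%), against 54.2% of all autosomal regions, by a median of 0.05.

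The lowest p for BLD against STD was on chromosome 11 from 94347211 to 94347729, with 5 probes. It measured 0.53, 0.21, 0.27 and 0.41 on the ERD arrays, 0.80, 0.73 and 0.29 on the BLD arrays and 0.03, 0.03 and 0.15 on the STD arrays. The BLD arrays were all above the STD arrays, the difference was 0.54 (SE 0.14, limma adjusted p = 0.44), and on the shared slide it was 0.26. On chromosome 14, the region from 118933111 to 118933446 had the largest difference of the 5 of lowest p, 0.75, with 0.53, 1.15, 0.18 and 0.65 on the ERD arrays, 1.20, 0.84 and 0.64 on the BLD arrays and 0.19, 0.11 and 0.10 on the STD arrays. With normexp the 2 differences were -0.21 and -0.15. The region of lowest p among those lower in BLD, on chromosome 2 from 168760676 to 168761051, measured 0.63, 1.26, 0.32 and 0.32 on the ERD arrays, 0.51, 0.36 and 0.17 on the BLD arrays and 0.35, 1.08 and 1.12 on the STD arrays, so the diets overlapped.

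The difference ERD minus BLD had a median of 0.07 over the always-high regions and -0.03 over all regions, and its direction in the always-high regions rested on single arrays. The median was -0.05 without ERD replicate 2 and -0.01 without BLD replicate 3, and it was 0.13 without ERD replicate 1, 0.14 without ERD replicate 3 and 0.13 without BLD replicate 1. With the arrays scaled to 1 interquartile range it was 0.0017, and with quantile normalization 0.0043. At an unadjusted p under 0.05, 34 had a higher mean in ERD (3.48% of all regions had) and 4 a lower one (6.71%). The ERD arrays lay above all BLD arrays in 38 (3.32% of all regions) and below them in 1 (6.79%). The higher count, 3.09% of the 1099, was near the background. It was 70 without ERD replicate 1, 22 without ERD replicate 2, 62 without ERD replicate 3 and 20 without BLD replicate 3. In the same order these were 6.37%, 2.002%, 5.64% and 1.82% of the 1099. Of all regions 2.52%, 3.46%, 2.92% and 4.71% were then higher in ERD at that p. The share was thus above the background without ERD replicate 1 or 3 and below it without ERD replicate 2 or BLD replicate 3. The lowest p was on chromosome 4 from 140581070 to 140581513, which measured 0.62, 0.79, 0.88 and 0.87 on the ERD arrays, 0.23, 0.21 and 0.16 on the BLD arrays and 0.54, 0.41 and 0.02 on the STD arrays. All ERD arrays were above all BLD and STD arrays, and the difference ERD minus BLD was 0.59 (SE 0.12, limma adjusted p = 0.422). Of the 4 that were lower, the region on chromosome 8 from 107871361 to 107872126 measured 0.08, 0.08, 0.12 and 0.02 on the ERD arrays, 0.33, 0.33 and 0.21 on the BLD arrays and 0.13, 0.24 and 0.15 on the STD arrays, a difference of -0.21 (SE 0.08) that was 0.04 with normexp.

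By diet means, the order ERD, BLD, STD from high to low was found in 626 always-high regions (57.0%) and in 18.5% of all autosomal regions, and STD was highest in 39 (3.55%) and in 32.7%. The comparisons share arrays, and the mean spread of the arrays of a diet followed the same order, though single arrays did not all follow. In the fit on the log2 n-3:n-6 ratio 219 always-high regions had a positive slope at an unadjusted p under 0.05 (7.09% of all regions) and 1 had a negative one (7.94%), and the slope had a median of 0.046 per doubling of the ratio. This median was 0.024 without ERD replicate 2 and 0.019 with the arrays scaled to 1 interquartile range. The count of 219 was 73 (6.64%) with the scaled arrays, where 6.37% of all regions had a positive slope at that p. It was 350 without ERD replicate 1, 98 without ERD replicate 2 and 333 without ERD replicate 3. It was 127 without STD replicate 1 and 87 without STD replicate 3. In the same order 8.001%, 4.99%, 8.48%, 6.92% and 3.53% of all regions had a positive slope at that p. The shares of always-high regions were 31.8%, 8.92%, 30.3%, 11.6% and 7.92%, each above that of all regions. The region on chromosome 8 from 46036924 had the lowest p here too, with a slope of 0.17 (SE 0.04, limma adjusted p = 0.128). On chromosome 13, the region from 55819209 to 55819502 was among the 5 of lowest p only for this fit, with 0.51, 1.31, 0.76 and 0.76 on the ERD arrays, 0.33, 0.60 and 0.40 on the BLD arrays and 0.14, 0.38 and 0.13 on the STD arrays and a slope of 0.12 (limma adjusted p = 0.168).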

How the data were processed

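10 samples of immunoprecipitated and input DNA were read on Agilent 2-colour arrays of 88737 probes, of which 88411 have a position. The intensities used are processed signals that the authors deposited, background-subtracted and dye-normalized linearly by Feature Extraction 10.7.3.1, per the file headers, while the submitters' processing notes list version 9.0. The authors' series table holds log10 ratios, which were turned to log2 and used as an alternative; what was done to them beyond the scanner's ratio is not given in the sources used here. From the deposited intensities, log2 ratios of Cy5 over Cy3 were computed without control spots and outlier spots (0.0575% to 0.536% of spots per array) and centred on the array median, with no loess. Saturated spots were kept.

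Diets were compared over all 10 arrays with no covariate by lmFit and eBayes of limma 3.58.1 (R 4.3.3) and Benjamini-Hochberg adjustment over 13835 regions; the script was tested on simulated data. The number of arrays limits the precision. The rule, the regions and the lists were chosen with earlier results of these data known. Named were the 10 regions of highest level, the 5 with the highest lowest array, the 5 with most probes, the 5 most and the 5 least even, 5 on each side of the threshold, the 5 of lowest p in each direction of each comparison and the 3 nearest pairs; some of these are given only by counts. The gene lists set for this work were not used, since no source used here pairs mm9 probes with genes. Alternatives were other background corrections, normalizations, filters and fits, and leaving out each array; plain background subtraction, no background correction and the position on the slide were added after the data were seen.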

Additional observations from a re-analysis of the deposited data

Results flagged for a closer look

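For 64 named regions, the ERD group of 4 arrays was checked for a single array far from the others, along with 5 summary measures per array, 69 measures in all. A gap to the nearest of the others above Dixon's 95% critical value was found in 3 of them. Chance gives about 1 in 20, so the number flagged was no more than chance gives. In all 3 the array was ERD replicate 2. It measured 2.01 in the region on chromosome 8 from 111480556 to 111481031, where the other ERD arrays measured 0.35, 0.03 and 0.37. In the region on chromosome 5 from 123823146 to 123823534 it measured 1.79, against 0.14, 0.08 and 0.36. In the region on chromosome 5 from 136327934 to 136328345, which sat just inside the rule, it measured 0.69, against 0.28, 0.25 and 0.28. These regions were named for their SD or for their lowest array, so the first 2 flags are in part fixed by that choice. Groups of 3 arrays were not checked.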

How the results depend on the processing

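No paired analysis was possible because replicate numbers were given in accession order and pair no samples. The number of always-high regions was 406 with normexp background correction, 528 among regions of at least 5 probes, 2203 when 9 of the 10 arrays sufficed, 90 when every array had to exceed 0.25, and between 1119 and 1561 with 1 array left out. The other settings gave between 828 and 1262. Of the always-high regions past an adjusted p of 0.05, there was 1 for ERD against STD and 1 for the trend with quantile normalization, 1 for the trend with array weights and 5 for the trend with no background correction, of 10, 10, 39 and 26 of all 13835 regions, against 0 in the main analysis and 0 without any 1 array. Shares of all regions in the same direction follow in parentheses. For ERD above STD at an unadjusted p under 0.05 (main count 214), the count was 91 with scaled arrays (7.96%), 131 with quantile normalization (7.15%), 27 with normexp (5.80%), 135 with only probes well above background on all arrays (5.69%), 505 with local background subtracted (15.5%) and 527 with no background correction (17.7%). As shares of the always-high regions these were 8.28%, 11.9%, 2.46%, 18.2%, 46.0% and 47.95%. The share was thus near the background with scaled arrays, below it with normexp and above it with quantile normalization and the other settings listed. For the positive trend (219) the same settings gave 73 (6.37%), 123 (6.17%), 38 (6.96%), 143 (5.68%), 520 (16.1%) and 547 (18.4%). For BLD above STD (77) the count was 0 with normexp (0.846%), 14 with only probes well above background (1.69%), 198 with only the groups compared (9.69%), 222 with array weights (13.05%) and 120 with the position on the slide as a term (7.95%). For ERD above BLD (34) it was 14 with scaled arrays (2.53%), 14 with normexp (0.484%), 57 with only probes well above background (6.89%), 233 with local background subtracted (9.99%) and 231 with no background correction (10.2%). With 1 array left out these 4 counts ranged from 77 to 334, from 87 to 350, from 19 to 203 and from 20 to 70. The shares of all regions then ranged from 4.03% to 8.703%, from 3.53% to 8.48%, from 3.101% to 11.03% and from 1.49% to 4.71%.

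Signs of named regions, given by chromosome and start, were turned only by another background correction or by the median of probes among the settings run. For ERD minus STD, normexp gave -0.0663 on chromosome 8 (46036924), -0.0619 on chromosome 2 (173410946), 0.0287 on chromosome 15 (81686664) and 0.116 on chromosome 4 (107704080), and the median of probes gave 0.13 on chromosome 15 (81686664). Local background subtraction gave 0.0230 on chromosome 4 (88513939) and 0.30 on chromosome 12 (9581237), and no correction gave 0.0275 and 0.212. For BLD minus STD, normexp gave -0.21 on chromosome 11 (94347211), -0.10 on chromosome 15 (12302663), -0.15 on chromosome 14 (118933111), -0.25 on chromosome 12 (105847994), 0.0559 on chromosome 10 (42299287) and 0.0535 on chromosome 6 (48579218). Local background subtraction gave 0.0791 on chromosome 2 (168760676) and 0.19 on chromosome 12 (9581237), where no correction gave 0.0763. For ERD minus BLD, normexp gave 0.0443 on chromosome 8 (107871361), 0.0004 on chromosome 12 (110637747), 0.0367 and 0.0766 on chromosome 5 (138228753 and 125914105) and 0.0315 on chromosome 10 (85420131). For the slope of the trend, normexp gave -0.0085 on chromosome 8 (46036924), 0.0044 on chromosome 15 (81686664) and 0.0072 on chromosome 8 (107871361), and the median of probes 0.025 on chromosome 15 (81686664). Local background subtraction gave 0.0049 on chromosome 4 (88513939), 0.055 on chromosome 12 (9581237) and 0.010 on chromosome 8 (107871361), and no correction 0.0061, 0.040 and 0.011. The cause was not tested. Signal over background limits these ratios: 741 of the 1099 regions were left when only probes well above background on all arrays were used.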

Other observations

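On chromosome X, which the rule left out, 42 of 385 regions (10.9%) were above 0 on all 10 arrays. They had a median level of 0.29. The highest, on chromosome X from 91225843 to 91226409 with 5 probes, had a level of 0.90, with 1.09 ± 0.68 on the ERD arrays (SD, n = 4), 1.04 ± 0.43 on the BLD arrays (n = 3) and 0.56 ± 0.21 on the STD arrays (n = 3). The second, from 166434962 to 166435845 with 7 probes, had its highest diet mean in STD, 0.87 ± 0.74, against 0.73 ± 0.48 in ERD and 0.72 ± 0.33 in BLD, and the diets differed by less than these SDs. Of 6 regions on unplaced or random sequence, 3 were above 0 on all arrays.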
